A study of Mus musculus with 6 samples.

Results

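Vessels that invade growth plate cartilage are lined by endothelial cells, and 10 genes of that lining were followed here across dissected tibial growth plates of ATF6 knockout and wild-type mice. They are Kdr, Flt1, Tie1, Tek, Pecam1, Cdh5, Plvap, Emcn, Eng and Egfl7. Every non-control probe of the array whose RefSeq accession belongs to one of these symbols was taken, which gave 12 probes for the 10 genes, out of 20145 genes that could be named. Plvap and Kdr have 2 probes each and the other 8 genes have 1.

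Total RNA of the tibial growth plate, cut out with a laser microdissector, was amplified as cDNA, labelled and hybridised to an Agilent mouse oligonucleotide array. The mice were untreated C57BL/6J males aged 4 weeks in 3 groups of 2 arrays, labelled ATF6aKO (knockout of ATF6a, gene Atf6), ATF6bKO (knockout of ATF6b, gene Atf6b) and WT. ATF6a and ATF6b are membrane-bound transcription factors of the endoplasmic reticulum that are cleaved and released under protein folding stress. The labels do not say which part of either gene was deleted, whether it was deleted in every tissue, how many animals went into an array, or whether each array stands for its own animal. A p-value here therefore sets a difference between labels only against the spread of arrays within labels. That spread is pooled over the 3 labels and moderated over all genes, and it can be technical.

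Growth plate cartilage holds no blood vessels. At its lower edge, capillaries from the bone marrow side grow into the rows of hypertrophic chondrocytes, drawn by vascular endothelial growth factor (VEGF) that these chondrocytes release, while the cartilage above makes inhibitors of vessel growth. A dissected growth plate can hold endothelial RNA from vessels at that edge and from tissue around the cartilage. In bulk tissue, fewer endothelial cells and less of a transcript per endothelial cell cannot be told apart.

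The upstream sequences of the VEGF receptor genes Kdr and Flt1 and of the receptor gene Tie1 are shown because Kdr and Tie1 were among the genes that fell in both knockouts and Flt1 was the one that rose. Each is the 250 bases before the RefSeq start on assembly GRCm38.p6, on the minus strand in all 3 cases: chr5:75978456-75978705 for Kdr, chr5:147726012-147726261 for Flt1 and chr4:118489850-118490099 for Tie1. Capitals mark GGAA on either strand (written TTCC where it lies on the other strand), the core that ETS transcription factors recognise in many endothelial genes.
Kdr: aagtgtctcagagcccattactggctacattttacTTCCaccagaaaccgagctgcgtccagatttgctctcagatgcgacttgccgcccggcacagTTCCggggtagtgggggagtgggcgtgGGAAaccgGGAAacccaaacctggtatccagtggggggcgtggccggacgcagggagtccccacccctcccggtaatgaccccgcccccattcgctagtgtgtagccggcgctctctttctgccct
Flt1: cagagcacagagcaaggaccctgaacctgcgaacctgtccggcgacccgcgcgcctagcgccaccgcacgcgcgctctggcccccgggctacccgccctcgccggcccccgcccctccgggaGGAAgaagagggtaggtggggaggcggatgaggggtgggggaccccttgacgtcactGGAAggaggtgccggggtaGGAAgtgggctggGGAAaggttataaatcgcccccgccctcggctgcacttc
Tie1: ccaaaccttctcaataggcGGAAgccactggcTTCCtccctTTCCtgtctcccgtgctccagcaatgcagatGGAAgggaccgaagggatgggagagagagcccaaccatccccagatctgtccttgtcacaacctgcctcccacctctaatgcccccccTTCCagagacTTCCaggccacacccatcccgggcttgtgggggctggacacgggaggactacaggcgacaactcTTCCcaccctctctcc
GGAA occurred 4 times upstream of Kdr, 4 times upstream of Flt1 and 7 times upstream of Tie1. It was in 9 of 9 windows found for 7 of the 10 genes, and in 93.4% of 32851 windows of the same length, whose median count was 3. The longer CCGGAA was in 1 of the 9 windows, that of Kdr, and in 12% of all windows, and GATAA (both strands), the core read by GATA factors, was in 1 of the 9 windows, at an Egfl7 start, and in 22.6% of all windows. These matches describe the letters and not the binding of any factor.

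Before the genes are compared, the arrays themselves differ. The 4 knockout arrays lie on 1 slide and were read with a 2-channel protocol, and the 2 WT arrays lie on another slide and were read with a 1-channel protocol. Knockout values come from the red channel and WT values from the single channel, which is green. Slide, channel and genotype therefore cannot be told apart in any knockout comparison with WT. The median background was 37 units of intensity on each knockout array and 17 on each WT array. Over all probes, the normalised arrays correlated at 0.9704 to 0.9881 among the knockouts, at 0.96 between both WT arrays, and at 0.8508 to 0.9057 between knockout and WT. Of 19122 genes tested, 42.7% passed an adjusted p of 0.05 between ATF6aKO and WT, 37.6% between ATF6bKO and WT and 0% between ATF6aKO and ATF6bKO. The targeted genes did not pass in their own knockout. Atf6 differed by -0.15 in log2 intensity (SE 0.16, adjusted p = 0.498 by limma) between ATF6aKO and WT, and Atf6b by -0.54 (SE 0.21, adjusted p = 0.0824 by limma) between ATF6bKO and WT. Where these probes lie relative to the deleted parts is not given in the sources used here, so they do not check the genotype labels.

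All 12 probes passed the filter on dim probes, which kept a probe that both arrays of some genotype read well above background. Below, intensities are scanner units as deposited, of the red channel for knockouts and the green channel for WT, which are not on 1 scale. Levels are normalised log2 intensities. Every difference is on the log2 scale, tested with limma over all genes, and a gene is said to rise or fall where its adjusted p is under 0.05.

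Between ATF6aKO and WT, 5 of the 10 genes fell (Plvap, Tie1, Pecam1, Kdr and Egfl7), 0 rose and 5 did not pass, against 22.3% lower and 20.3% higher over all genes tested. On the arrays themselves 7 genes did not overlap and were lower and 1 was higher, against 38.6% and 34.6% of all genes. The median difference of the 10 genes was -0.64, against -0.03 over all genes. Between ATF6bKO and WT, 4 fell (Plvap, Tie1, Pecam1 and Kdr), 1 rose (Flt1) and 5 did not pass, against 20.3% lower and 17.3% higher over all genes. There too 7 genes did not overlap and were lower and 1 was higher, against 39.5% and 33.3% of all genes. The median there was -0.69, against -0.05 over all genes. Both comparisons use the same WT arrays. On all 4 knockout arrays 6 genes lay below both WT arrays, 1 lay above them and 3 overlapped, against 33.5% of all genes below and 28.3% above. In the authors' own value table, where the knockout columns follow the unlabelled green channel, 2 of the 10 genes passed in each comparison, with Plvap lower and Cdh5 higher, against 50.8% of all genes called in ATF6aKO and 51.7% in ATF6bKO. Tie1, not well above background on 3 of the 4 knockout arrays, entered the fit through its WT arrays. Among the 9 genes left where all 6 arrays had to read a probe well above background, 4 fell in ATF6aKO and 3 fell and 1 rose in ATF6bKO, against 46.1% and 41.1% of genes called in either direction.

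**Figure D1:**
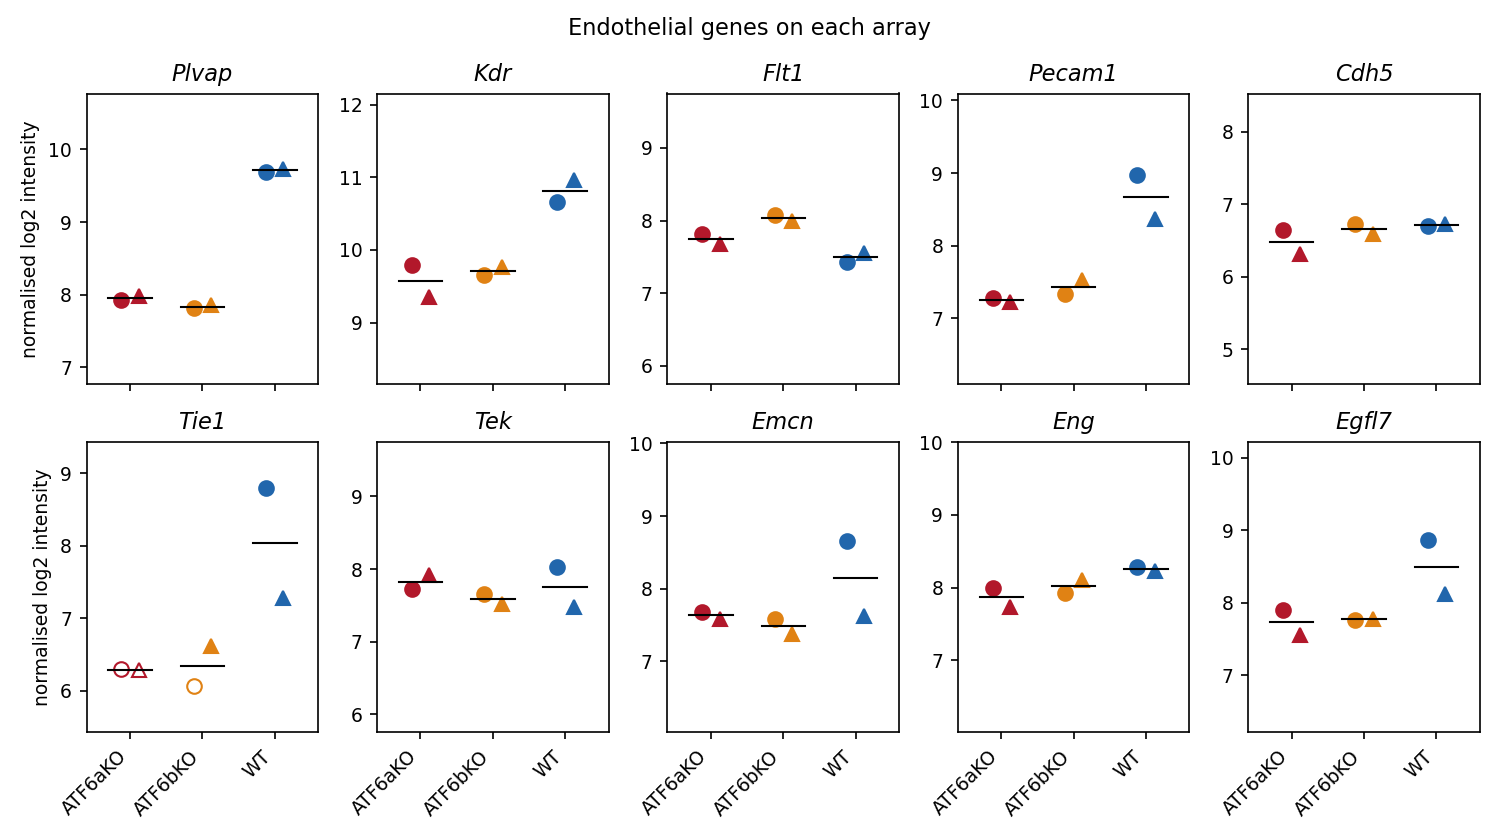
Normalised log2 intensity of each endothelial gene (vertical axis, the same span in every panel) on the 2 ATF6aKO, 2 ATF6bKO and 2 WT arrays, with circles for replicate 1, triangles for replicate 2, open symbols for values not well above background and a line at each mean. Plvap, Kdr, Pecam1, Tie1, Eng and Egfl7 lie below both WT arrays on all 4 knockout arrays, and Flt1 lies above them. Pecam1, Tie1, Tek, Emcn and Egfl7 differ by more between the WT arrays than within either knockout.

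The fenestral gene Plvap, which encodes the protein of the diaphragms that bridge capillary fenestrae and caveolae, had the smallest adjusted p of the 10 genes in both comparisons with WT. Its brighter probe read 218 and 202.5 on the ATF6aKO arrays, 177.5 and 164.5 on the ATF6bKO arrays, and 1257.5 and 1066 on the WT arrays. After normalisation its level was 7.92 and 7.98 on ATF6aKO arrays, 7.81 and 7.86 on ATF6bKO arrays, and 9.69 and 9.73 on WT arrays. The knockout values lie close together and none comes near a WT value. Plvap fell in both knockouts, with a difference of -1.76 in ATF6aKO (SE 0.15, adjusted p = 0.000588) and -1.88 in ATF6bKO (SE 0.15, adjusted p = 0.000636), the second a 3.68-fold fall. Its dimmer probe read 75 and 69.5 on ATF6aKO arrays, 79 and 58 on ATF6bKO arrays, and 255 and 168 on WT arrays, and was not well above background on ATF6bKO replicate 2. That probe moved the same way by less, at -1.0 in ATF6aKO (adjusted p = 0.00462) and -0.97 in ATF6bKO (adjusted p = 0.0061). Plvap passed under each of 16 alternative settings in both comparisons, over a range of -2.50 to -1.0 for ATF6aKO and -2.17 to -0.97 for ATF6bKO.

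Of the VEGF receptors, Kdr fell in both knockouts and Flt1 rose in ATF6bKO. Kdr encodes the receptor through which VEGF drives endothelial division and sprouting. Its brighter probe read 817 and 537 on ATF6aKO arrays, 640 and 630 on ATF6bKO arrays, and 2529 and 2552 on WT arrays, and its level was 9.79 and 9.35 on ATF6aKO arrays, 9.65 and 9.77 on ATF6bKO arrays, and 10.66 and 10.96 on WT arrays. The groups did not overlap, and Kdr fell by 1.25 in ATF6aKO (SE 0.21, adjusted p = 0.0032) and 2.15-fold in ATF6bKO, a difference of -1.1 (SE 0.21, adjusted p = 0.00595). The other Kdr probe did not pass. It is printed 10 times on the array and read a median of 112.5 and 129.75 on ATF6aKO arrays, 107.5 and 95.5 on ATF6bKO arrays, and 229 and 126.5 on WT arrays. Its levels were 7.06 and 7.38 on ATF6aKO arrays, 7.16 and 7.07 on ATF6bKO arrays, and 7.54 and 7.16 on WT arrays, where WT replicate 2 lies among the knockout arrays. The differences were -0.12 in ATF6aKO (adjusted p = 0.638) and -0.23 in ATF6bKO (adjusted p = 0.391). On WT replicate 2 its repeated spots had a coefficient of variation of 31.9%, against 7.7% to 11.8% on the knockout arrays and 4.7% on WT replicate 1, and 1 of its 10 spots was marked as an outlier. That coefficient counts the outlier spot, which was left out of the levels and differences above. The mean of both Kdr probes differed by -0.68 in ATF6aKO and -0.67 in ATF6bKO, and without ATF6bKO replicate 1 the ATF6bKO difference of the brighter probe was -1.04 with an adjusted p of 0.0511.

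**Figure D2:**
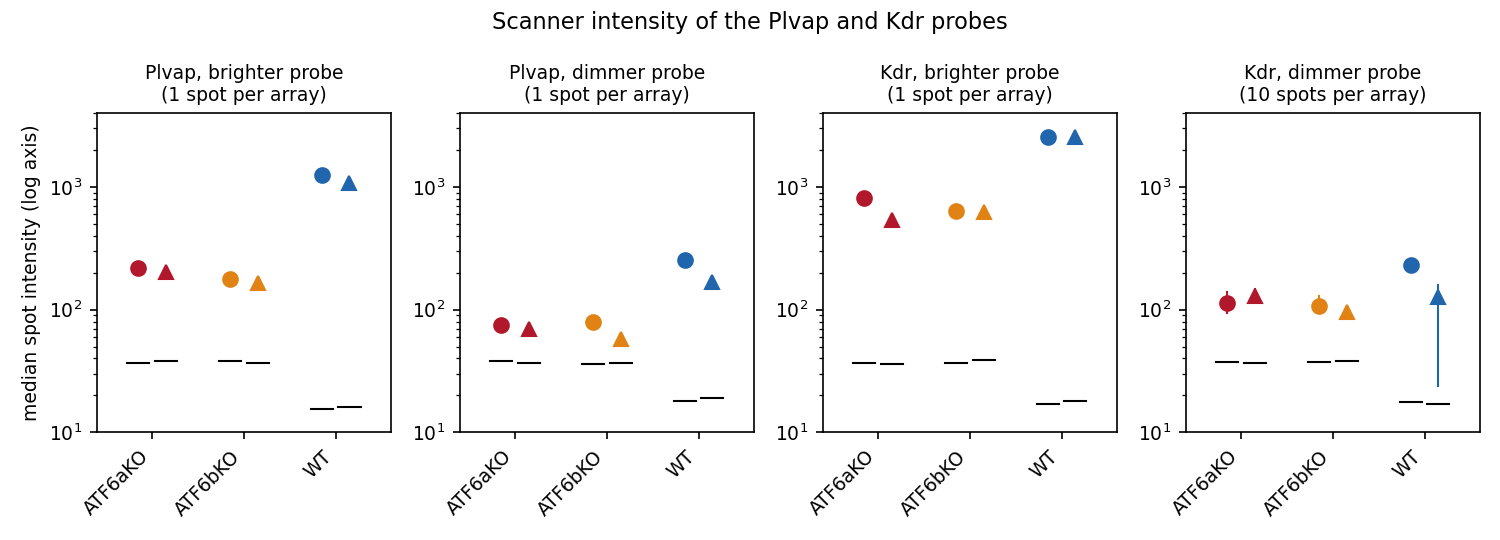
Median spot intensity in scanner units (log axis) of the brighter and the dimmer probe of Plvap and of Kdr on the ATF6aKO, ATF6bKO and WT arrays, with black ticks for the local background and, for the Kdr probe with 10 spots, a vertical line from its lowest to its highest spot. Both Plvap probes and the brighter Kdr probe are higher on both WT arrays, whereas the dimmer Kdr probe on WT replicate 2, whose lowest spot read 24, lies among the knockout values. Spots marked as outliers are drawn here, though they were left out of the fit.

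Flt1 encodes a second VEGF receptor that binds the ligand tightly but signals weakly and, in its soluble form, withholds VEGF from Kdr. It read 201.5 and 164.5 on ATF6aKO arrays, 215 and 181.5 on ATF6bKO arrays, and 208.5 and 188.5 on WT arrays, so the intensities overlapped. Its normalised level was 7.81 and 7.68 on ATF6aKO arrays, 8.07 and 7.99 on ATF6bKO arrays, and 7.43 and 7.56 on WT arrays, higher on all 4 knockout arrays. The median spot of an array read 183 and 165 on ATF6aKO arrays, 162.5 and 146 on ATF6bKO arrays, and 259.5 and 210 on WT arrays. Flt1 rose 1.45-fold in ATF6bKO, by 0.54 (SE 0.16, adjusted p = 0.0311), and differed by 0.25 in ATF6aKO (95% interval -0.11 to 0.62, adjusted p = 0.225). The ATF6bKO call was lost when any single ATF6bKO or WT array was left out, with adjusted p between 0.055 and 0.161.

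Of the Tie receptors, Tie1 was dim on the knockout arrays and passed in both knockouts, and Tek passed in neither. Tie1 met the filter on dim probes only through its WT arrays, where it is high, so its calls are no separate support for a fall. Tek encodes the receptor of the angiopoietins, which steadies mature vessels, and Tie1 a related receptor without a known strong ligand of its own that modulates Tek. Tie1 read 59 and 58.5 on ATF6aKO arrays, 49.5 and 67 on ATF6bKO arrays, and 641 and 147 on WT arrays. It was not well above background on either ATF6aKO array or on ATF6bKO replicate 1, so its fall is a bound in ATF6aKO, at least 3.35-fold lower than WT (level 6.29 ± 0.01 against 8.04 ± 1.07, SD, n = 2 arrays each, limma adjusted p = 0.0163). In ATF6bKO it was 6.07 and 6.62, against 8.79 and 7.28 in WT, and it fell by 1.70 (SE 0.44, adjusted p = 0.0206). Both WT arrays were higher than each knockout array, but they differed from each other by more than the knockout arrays did. The size of the difference depends on the WT array, at -0.99 in ATF6aKO and -0.94 in ATF6bKO without WT replicate 1 and -2.50 and -2.45 without WT replicate 2. The Tie1 call was lost without either array of the knockout concerned, with adjusted p of 0.0737 and 0.0918 for ATF6aKO and 0.127 and 0.0528 for ATF6bKO.

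Tek read 189 and 194.5 on ATF6aKO arrays, 158 and 132 on ATF6bKO arrays, and 346 and 173.5 on WT arrays. Its level was 7.73 and 7.92 on ATF6aKO arrays, 7.66 and 7.52 on ATF6bKO arrays, and 8.03 and 7.47 on WT arrays, so both knockouts lay between the WT arrays. The difference was 0.08 in ATF6aKO (95% interval -0.43 to 0.58, adjusted p = 0.794) and -0.16 in ATF6bKO (95% interval -0.66 to 0.35, adjusted p = 0.593).

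Of the junction genes, Pecam1 fell in both knockouts and Cdh5 passed in neither. Pecam1 encodes the adhesion molecule that endothelial cells hold on to one another with and is also found on platelets and white blood cells. Its median over 2 spots was 135 and 117 on ATF6aKO arrays, 127 and 129.75 on ATF6bKO arrays, and 738 and 372.5 on WT arrays. Its level was 7.28 and 7.22 on ATF6aKO arrays, 7.34 and 7.53 on ATF6bKO arrays, and 8.97 and 8.36 on WT arrays, with no overlap. Pecam1 fell 2.66-fold in ATF6aKO (difference -1.41, SE 0.22, adjusted p = 0.00281) and 2.35-fold in ATF6bKO (difference -1.23, SE 0.22, adjusted p = 0.00552).

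Cdh5 encodes VE-cadherin, the cadherin of endothelial adherens junctions. It was dim everywhere, at 77 and 59 on ATF6aKO arrays, 82 and 65 on ATF6bKO arrays, and 100 and 80 on WT arrays, though well above background on every array. Its level was 6.64 and 6.32 on ATF6aKO arrays, 6.73 and 6.59 on ATF6bKO arrays, and 6.70 and 6.73 on WT arrays. The WT values sit at or near the top of the knockout range, and the difference was -0.23 in ATF6aKO (95% interval -0.64 to 0.17, adjusted p = 0.305) and -0.06 in ATF6bKO (95% interval -0.46 to 0.35, adjusted p = 0.824). Scaling each array to its 75th percentile, which moved the median of all genes to 0.13 and 0.16, gave Cdh5 differences of 0.09 and 0.33 that did not pass either.

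The remaining genes are surface and secreted products. Emcn encodes endomucin, a sialomucin that with Pecam1 marks the capillaries of the metaphysis next to the growth plate in mouse long bone. It read 182.5 and 151.5 on ATF6aKO arrays, 150 and 115 on ATF6bKO arrays, and 576 and 201 on WT arrays, and its level was 7.68 and 7.58 on ATF6aKO arrays, 7.58 and 7.38 on ATF6bKO arrays, and 8.66 and 7.62 on WT arrays. WT replicate 1 stood clearly above every knockout array, while WT replicate 2 lay next to them. The difference was -0.50 in ATF6aKO (SE 0.31, adjusted p = 0.225) and -0.66 in ATF6bKO (SE 0.31, adjusted p = 0.135). Without WT replicate 2 the differences were -1.03 (adjusted p = 0.00549) and -1.18 (adjusted p = 0.00309), so the call for Emcn depends on which WT array is used.

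Eng encodes endoglin, a co-receptor for ligands of the TGF-beta family. It read 232.5 and 169.5 on ATF6aKO arrays, 193 and 196 on ATF6bKO arrays, and 426 and 336.5 on WT arrays, and its level was 8.00 and 7.73 on ATF6aKO arrays, 7.93 and 8.11 on ATF6bKO arrays, and 8.28 and 8.23 on WT arrays. Each knockout array lay below both WT arrays, but the difference did not pass, at -0.39 in ATF6aKO (SE 0.17, adjusted p = 0.104) and -0.23 in ATF6bKO (SE 0.17, adjusted p = 0.318). Egfl7 encodes a matrix protein that endothelial cells secrete around growing vessels. It read 213 and 149 on ATF6aKO arrays, 171.5 and 154 on ATF6bKO arrays, and 677.5 and 308 on WT arrays, and its level was 7.90 and 7.56 on ATF6aKO arrays, 7.76 and 7.78 on ATF6bKO arrays, and 8.87 and 8.12 on WT arrays. All 4 knockout arrays lay below both WT arrays. Egfl7 fell 1.70-fold, a difference of -0.77, in ATF6aKO (SE 0.26, adjusted p = 0.0465) and differed by -0.73 in ATF6bKO (SE 0.26, adjusted p = 0.06). The ATF6aKO call held in 6 of 15 alternative settings and the ATF6bKO difference passed in 3 of 15.

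**Figure D3:**
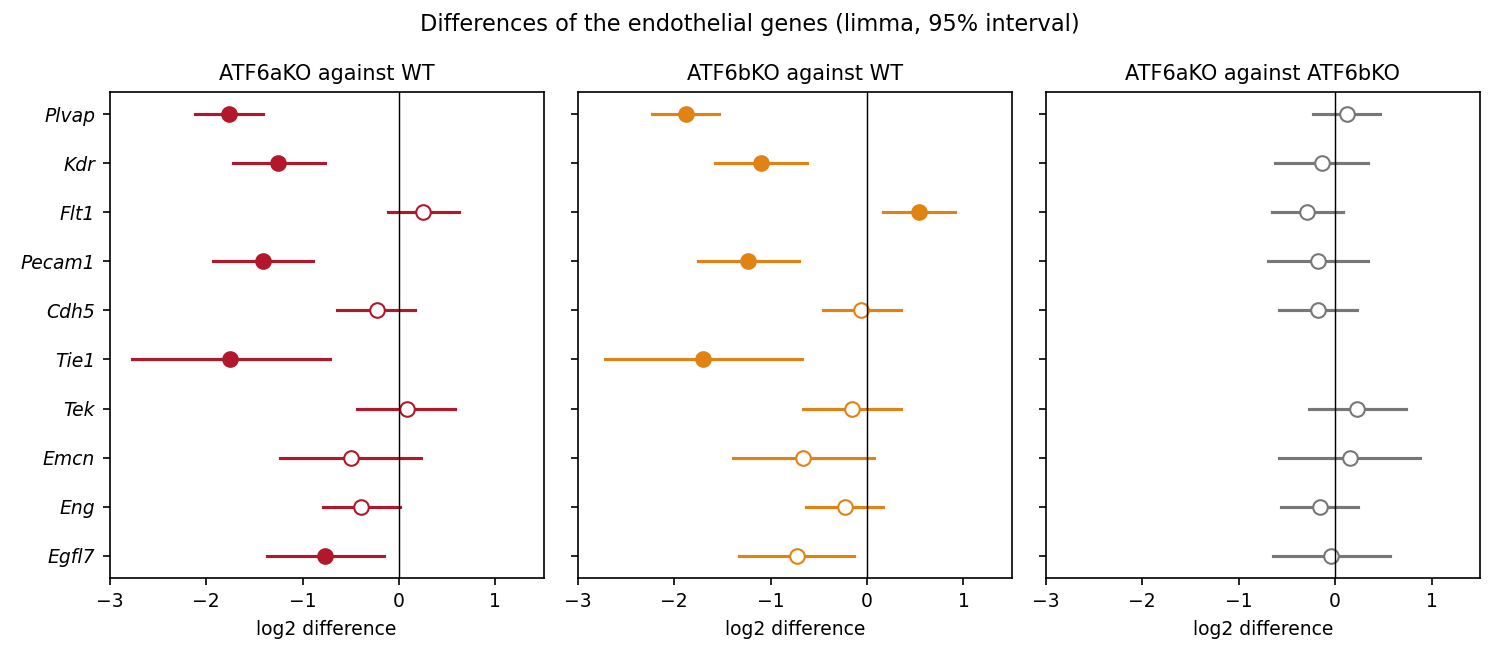
Log2 difference of each endothelial gene (horizontal axis) for ATF6aKO against WT, ATF6bKO against WT and ATF6aKO against ATF6bKO, with 95% intervals from limma and filled symbols where the adjusted p over all genes was under 0.05. Filled symbols lie left of 0 for Plvap, Kdr, Pecam1 and Tie1 in both comparisons with WT and for Egfl7 in the first, and right of 0 for Flt1 in the second, and the last panel has no filled symbol and leaves out Tie1, which neither knockout read well above background on both of its arrays.

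Between ATF6aKO and ATF6bKO, whose arrays share a slide and a channel but lie in different rows of the slide, 0 of the 10 genes passed in limma, against 0% of all genes, and at an unadjusted p under 0.05 0 of the 10 passed against 6.11% of all genes. The differences ran from -0.29 for Flt1 (95% interval -0.65 to 0.08) to 0.23 for Tek (95% interval -0.27 to 0.74), with a median of -0.10 and adjusted p between 0.874 and 0.998. For Plvap the difference was 0.12 (95% interval -0.23 to 0.47) and for Kdr -0.14 (95% interval -0.62 to 0.34). For Tie1, too dim on the knockout arrays, no difference between the knockouts is given on its own, though Tie1 is counted among the 10 genes and in that median. The arrays of both knockouts did not overlap in 5 genes, lower in ATF6aKO in 2 (Flt1 and Pecam1) and higher in 3 (Plvap, Tek and Emcn), against 16.9% lower and 20.1% higher over all genes.

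Averaged over the 10 genes, the mean deviation from each gene's own mean over the 6 arrays was -0.20 and -0.35 on ATF6aKO arrays, -0.25 and -0.20 on ATF6bKO arrays, and 0.70 and 0.30 on WT arrays. The knockout arrays were thus close to one another and the WT arrays were unequal. WT replicate 1 was the higher of the WT arrays in 6 genes (Pecam1, Tie1, Tek, Emcn, Eng and Egfl7) and WT replicate 2 in the other 4 (Plvap, Kdr, Flt1 and Cdh5). Leaving out WT replicate 1 gave a median difference of -0.38 for ATF6aKO and -0.28 for ATF6bKO, and leaving out WT replicate 2 gave -1.06 and -1.03.

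The genes did not follow the mean of the group to the same degree. Over the 6 arrays, Pearson's r with that mean, of which each gene is itself a part, was 0.993 for Pecam1, 0.971 for Tie1, 0.966 for Egfl7, 0.931 for Plvap and 0.886 for Kdr. It was 0.843 for Eng and 0.837 for Emcn, 0.522 for Cdh5, 0.274 for Tek and -0.779 for Flt1. The genes outside the lists most like the mean, of 18086 ranked, were Sh3bgrl3 (r = 0.9982), Phb2 (0.9978), Vwa1 (0.9978), St14 (0.9975) and Syt11 (0.9971), and 40 genes had r over 0.99. The arrays fall on 2 slides that match knockout and WT, so these coefficients describe that split and the order of the WT arrays, over 6 points. Sh3bgrl3 had levels of 9.04 and 8.88 on ATF6aKO arrays, 9.05 and 9.10 on ATF6bKO arrays, and 10.57 and 9.84 on WT arrays.

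The counts in the gene lists that follow stand against 22.3% lower and 20.3% higher over all genes in ATF6aKO, and 20.3% lower and 17.3% higher in ATF6bKO. They can include genes that met the filter on dim probes only through the WT arrays, whose calls are no separate support for a fall. Of 25 further genes of endothelium in general, 23 were tested, and 9 fell and 1 rose in ATF6aKO, while 6 fell and 1 rose in ATF6bKO, where the share that fell was near that of all genes. Their median difference was -0.59 in ATF6aKO and -0.43 in ATF6bKO. Gpihbp1, which carries lipoprotein lipase to the capillary wall, had a level of 8.74 and 8.63 on ATF6aKO arrays, 8.80 and 8.93 on ATF6bKO arrays, and 10.04 and 10.14 on WT arrays, and fell with differences of -1.41 (adjusted p = 0.000942) and -1.23 (adjusted p = 0.00171). Cldn5, the main claudin of endothelial tight junctions, had a level of 7.78 and 7.86 on ATF6aKO arrays, 7.90 and 7.91 on ATF6bKO arrays, and 8.85 and 8.80 on WT arrays, and fell with differences of -1.01 (adjusted p = 0.00232) and -0.92 (adjusted p = 0.00383). For both genes the WT arrays were close to each other and above all knockout arrays. Myct1 fell on its brighter probe, at -1.39 in ATF6aKO and -1.01 in ATF6bKO (adjusted p = 0.00155 and 0.00552), but a second probe gave -0.43 and -0.23 with no call. The genes that rose, named after their values were seen, were the transcription factor gene Erg in ATF6aKO (0.57, adjusted p = 0.0299) and the phosphatase gene Ptprb in ATF6bKO (0.57, adjusted p = 0.0452).

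Genes of tip cells, arteries and Notch signalling passed in both directions. Of 15 tested out of 16, 4 fell and 3 rose in ATF6aKO, shares near those of all genes, and 5 fell and 2 rose in ATF6bKO, with medians of -0.49 and -0.32. Dll4, the Notch ligand of tip cells, had a level of 8.54 and 8.24 on ATF6aKO arrays, 8.53 and 8.66 on ATF6bKO arrays, and 9.87 and 10.05 on WT arrays, and fell 2.96-fold (adjusted p = 0.000968) and 2.57-fold (adjusted p = 0.00177). The receptor gene Notch1 rose by 1.41 in ATF6aKO (adjusted p = 0.00156) and 1.29 in ATF6bKO (adjusted p = 0.00248). Its other probe gave 0.65 and 0.55. Ephb4, a receptor of venous endothelium, fell on one probe, at -1.60 and -1.85 (adjusted p = 0.00148 and 0.00117), whereas a second probe gave 0.01 and 0.22 with no call. Of the others that passed, named after their values were seen, the arterial genes Efnb2 (-1.14 and -0.79) and Gja4 (-0.74 and -0.70) fell in both knockouts, the tip cell gene Esm1 (0.71 and 0.65) rose in both, Unc5b rose by 1.45 in ATF6aKO and Apln fell by 0.62 in ATF6bKO. Among 5 lymphatic genes tested of 7, Flt4 fell in both, at -0.50 in ATF6aKO (adjusted p = 0.0494) and -0.53 in ATF6bKO (adjusted p = 0.0454), and Mmrn1 rose by 0.69 in ATF6bKO (adjusted p = 0.0297).

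The ligands and inhibitors that reach these receptors are made largely by other cells. Of 15 ligands tested out of 16, 4 fell and 2 rose in each knockout, with medians of -0.23 in ATF6aKO and -0.14 in ATF6bKO. Vegfa, the ligand of Kdr and Flt1, has 2 probes that moved in opposite directions. The brighter one had a level of 7.38 and 7.76 on ATF6aKO arrays, 8.56 and 7.67 on ATF6bKO arrays, and 9.04 and 9.01 on WT arrays, and fell in both, at -1.45 (adjusted p = 0.0068) and -0.90 (adjusted p = 0.0441). The other had 8.03 and 7.86 on ATF6aKO arrays, 8.14 and 7.69 on ATF6bKO arrays, and 6.68 and 6.24 on WT arrays, and rose by 1.49 (adjusted p = 0.00241) and 1.45 (adjusted p = 0.00313) in a fit of every probe. No single direction can be given for Vegfa. Angpt4, a Tek ligand, fell in both, at -1.81 (adjusted p = 0.00233) and -1.85 (adjusted p = 0.00254). Tgfb2 rose by 2.40 in ATF6aKO (adjusted p = 0.000568) and 2.11 in ATF6bKO (adjusted p = 0.000841) on one probe, and differed by 0.08 and 0.05 on another. The other ligand genes that passed, named after their values were seen, were Pgf (-0.71 and -0.52) and Tgfb3 (-0.65 and -0.61), which fell in both knockouts, and Angpt2 (0.55 and 0.62), which rose in both.

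Of 9 angiogenesis inhibitors tested out of 10, 3 rose and 1 fell in ATF6aKO, and 1 rose and 1 fell in ATF6bKO. Cnmd, which encodes the cartilage inhibitor chondromodulin, had a level of 12.82 and 13.34 on ATF6aKO arrays, 11.45 and 11.12 on ATF6bKO arrays, and 10.99 and 11.43 on WT arrays, and rose 3.65-fold in ATF6aKO (adjusted p = 0.00152). In ATF6bKO it differed by 0.07 (adjusted p = 0.835), and the difference between ATF6aKO and ATF6bKO, 1.79 (95% interval 1.22 to 2.37), had an adjusted p of 0.611 over all genes. Thbs1, a matrix glycoprotein that blocks endothelial growth, rose by 1.69 in ATF6aKO (adjusted p = 0.0029). Sema3a, a guidance factor that repels endothelial cells, rose by 0.69 (adjusted p = 0.0121) and 0.74 (adjusted p = 0.0106) on one probe and gave -0.09 and 0.02 on another. Serpinf1, the gene of an inhibitor that bone cells also make, fell in both, at -2.58 (adjusted p = 0.0368) and -2.49 (adjusted p = 0.0455). Its WT arrays stood at 12.05 and 8.98, far apart from each other.

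Of 11 genes of mural cells, the pericytes and smooth muscle cells that wrap vessels, 4 fell and 1 rose in ATF6aKO, and 1 fell and 1 rose in ATF6bKO, with medians of -0.13 and -0.04. The one that rose in both was Kcnj8, a potassium channel gene of pericytes, at 2.03 (adjusted p = 0.00079) and 1.96 (adjusted p = 0.00109). Cspg4 fell in both, at -0.53 in ATF6aKO (adjusted p = 0.031) and -0.98 in ATF6bKO (adjusted p = 0.00375). The others that fell in ATF6aKO were Tagln (-0.64), Myh11 (-0.67) and, named after its values were seen, Pdgfrb (-1.1). They did not pass in ATF6bKO. Of 9 genes of the vessel basement membrane, 3 fell and 1 rose in ATF6aKO and 3 fell and 0 rose in ATF6bKO. The collagen gene Col4a2 had a level of 7.72 and 8.08 on ATF6aKO arrays, 7.97 and 8.29 on ATF6bKO arrays, and 10.54 and 9.24 on WT arrays, and fell in both, at -1.99 (adjusted p = 0.00599) and -1.76 (adjusted p = 0.011). Another of the genes counted as fallen, Nid1, has probes that moved in opposite directions. The brightest gave -1.26 in ATF6aKO (adjusted p = 0.00666) and -1.56 in ATF6bKO (adjusted p = 0.00363) in a fit of every probe, and a dimmer one rose by 0.96 (adjusted p = 0.0154) and 0.82 (adjusted p = 0.0309), so no single direction can be given for Nid1. Cartilage and bone cells also make basement membrane proteins.

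Markers of other tissues in reach of the dissection also differed between the arrays. Cartilage markers differed by knockout and WT, and the mean of the bone markers mainly on WT replicate 1. Of 16 chondrocyte markers, 13 rose and 1 fell in ATF6aKO and 9 rose and 2 fell in ATF6bKO, with medians of 2.65 and 1.25, and their mean deviation per array was 1.01 and 1.40 on ATF6aKO arrays, 0.44 and -0.48 on ATF6bKO arrays, and -1.28 and -1.09 on WT arrays. Their normalised levels, taken back from log2 and summed, ran from 32560 to 137500 across knockout arrays and from 18990 to 24530 across WT arrays. The cartilage collagen gene Col2a1 had a level of 15.06 and 15.36 on ATF6aKO arrays, 14.51 and 13.25 on ATF6bKO arrays, and 10.88 and 11.15 on WT arrays. The summed cartilage level was thus lower on each WT array than on each knockout array, and its part in the endothelial differences was not tested.

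Among erythroid and macrophage markers more fell than rose in both knockouts, though each list holds markers that were dim on knockout arrays. On each WT array 10 erythroid markers read well above background, against 8 and 8 on ATF6aKO and 8 and 9 on ATF6bKO arrays. For macrophage and haematopoietic markers it was 11 on each WT array and 10 on each knockout array. Where a marker met the filter only through WT arrays, its call is no separate support for a fall. Of 10 erythroid markers tested out of 11, 4 fell and 2 rose in each knockout, and their mean deviation was -0.30 and -0.52 on ATF6aKO arrays, -0.29 and -0.29 on ATF6bKO arrays, and 1.03 and 0.37 on WT arrays. The erythrocyte anion exchanger gene Slc4a1 had a level of 8.13 and 8.09 on ATF6aKO arrays, 8.13 and 8.35 on ATF6bKO arrays, and 10.43 and 10.44 on WT arrays. Of 11 macrophage and haematopoietic markers tested out of 12, 7 fell and 1 rose in ATF6aKO and 6 fell and 1 rose in ATF6bKO, with medians of -0.78 and -0.75. Among those that fell in both were Ptprc (-1.03 and -0.80, adjusted p = 0.00463 and 0.0137) and Cd14 (-0.78 and -0.77). Mpeg1 fell on its brighter probe (-1.13 and -1.15), while its other probe gave 0.33 and 0.51. The one that rose was the lysozyme gene Lyz2, by 2.35 in ATF6aKO (adjusted p = 0.00145) and 1.84 in ATF6bKO (adjusted p = 0.00391). Platelet markers bear on Pecam1, as do those of white blood cells. Of 7 platelet markers, 0 passed in either knockout (Itga2b had the smallest p in ATF6aKO, at -0.53 with an adjusted p of 0.0619). Their median difference was -0.34 in ATF6aKO and -0.26 in ATF6bKO. Their mean deviation was -0.05 and -0.16 on ATF6aKO arrays, -0.02 and -0.02 on ATF6bKO arrays, and 0.07 and 0.18 on WT arrays, so a lower platelet content is not excluded. WT replicate 1 also stood apart in the mean of the bone markers. The mean deviation of 8 osteoblast and osteocyte markers tested out of 11 was -0.42 and -0.43 in ATF6aKO, -0.53 and -0.86 in ATF6bKO, 2.81 on WT replicate 1 and -0.58 on WT replicate 2, and that of 10 osteoclast markers was 1.40 on WT replicate 1 and below 0 on the other 5 arrays. Of the osteoblast and osteocyte markers 2 fell and 0 rose in each knockout, a share near that of all genes, and both were higher on both WT arrays. Bglap2 had a level of 10.56 and 10.22 on WT arrays and 8.27 to 9.09 on knockout arrays. Mepe had 6.82 and 6.93 on WT arrays and 6.32 to 6.48 on knockout arrays. Of the osteoclast markers 1 fell and 1 rose in each knockout. Of 8 skeletal muscle markers, 2 rose and 2 fell in each knockout. The part of these tissues in the endothelial differences was not tested.

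**Figure D4:**
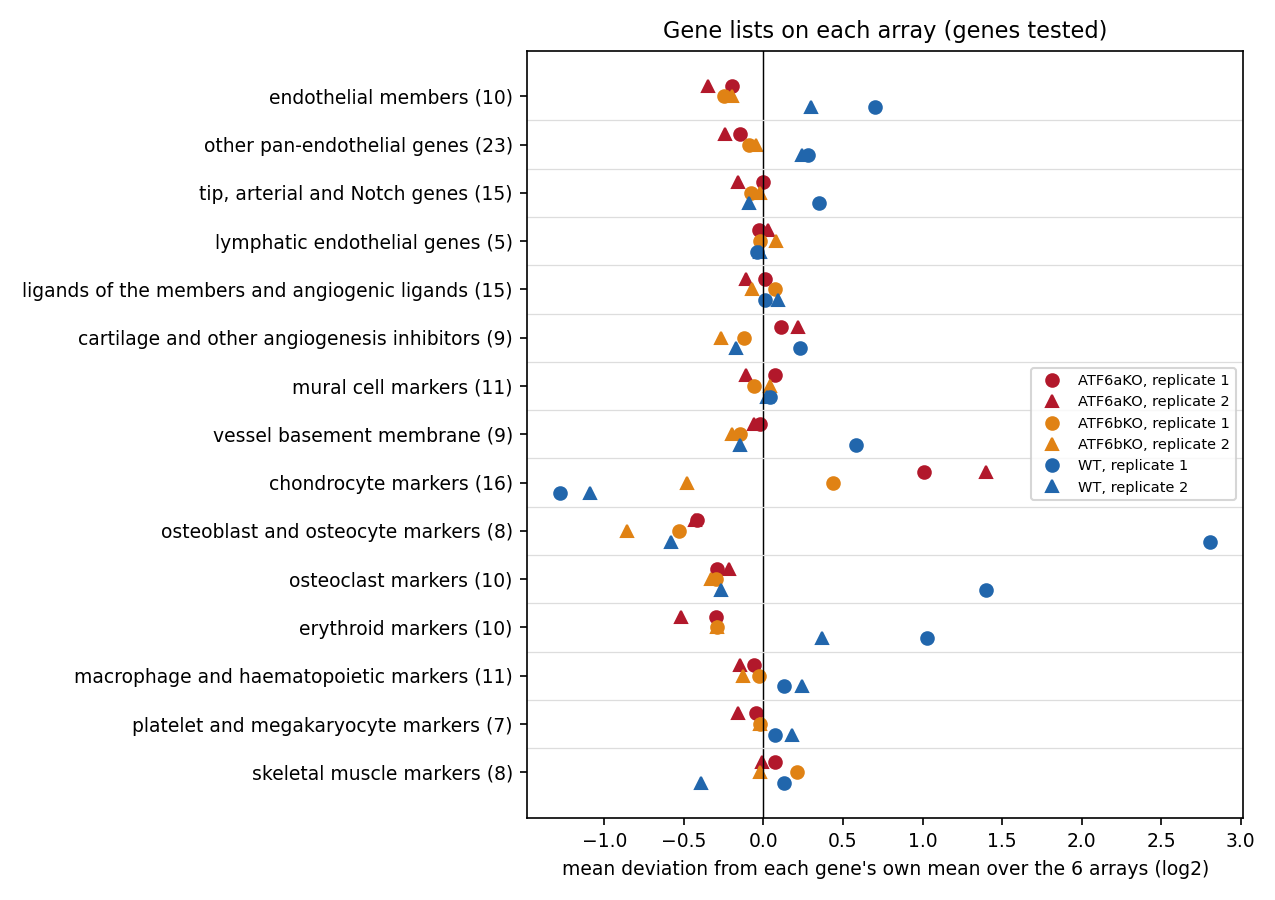
Mean deviation of each gene list from its genes' own means over the 6 arrays (log2, horizontal axis) on each ATF6aKO, ATF6bKO and WT array, with the number of genes tested in parentheses. The endothelial genes, the other pan-endothelial genes and the erythroid, macrophage and platelet markers lie higher on both WT arrays than on every knockout array. The chondrocyte markers lie lower there, and the means of the bone markers stand out on WT replicate 1 alone.

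Between ATF6aKO and ATF6bKO, 0 genes passed in each of these 14 lists, and the list with the largest median difference was that of chondrocyte markers, at 1.35, against -0.14 for the other endothelial genes and -0.12 for the erythroid markers.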

How the data were processed

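Amplified cDNA of 6 samples was hybridised, 2 arrays per genotype as the labels give it. Spot intensity was deposited as scanner output, and the submitters' processing notes name Agilent Feature Extraction 10.7.1.1. The knockout slide carries a 2-channel and the WT slide a 1-channel protocol, per the file headers, and the labels give Cy5 for every sample. The red channel was therefore used for knockouts. For WT the single channel was used, which the scanner output names green although the label reads Cy5. The authors' value table holds log2 values. Its differences between arrays followed the green processed signal (r at least 0.9989), also in the knockout columns. The medians of its ATF6aKO columns were 0.2 and 0.1, those of ATF6bKO 0 and 0.227, and those of WT -0.5 and -0.5, and how its centring was chosen is not known, so it served as an alternative.

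Each array had 59305 non-control spots for 55681 probes. Background was corrected with normexp (limma 3.58.1, R 4.3.3, offset 50) on the median spot and median background intensity. Values were taken to log2, control and flagged spots were left out (288 probes), repeated spots were averaged per probe, and the arrays were quantile normalised. Accessions were matched to symbols through a RefSeq gene table of GRCm38.p6, used for names. This named 26582 probes, and 29099 had no match. Promoter sequences come from the RefSeq promoter table of that assembly. Probes that both arrays of some genotype read well above background were kept, and each gene was represented by its brightest one, which left 19122 genes. One limma fit over 6 arrays gave all 3 comparisons, two-sided, with Benjamini-Hochberg adjustment over all genes. The number of arrays limits the precision. The fit was tested on simulated data with independent noise and no slide or channel effect. That test therefore does not bear on the slide and channel difference between knockout and WT. For Tie1 in ATF6aKO, not well above background, the fold uses the higher of the array's lowest signal well above background and the probe's own. The fold was 3.35 with and without that floor.

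The endothelial genes, the other lists and the tests were chosen with earlier results of these data known. Beside the 10 genes and the targeted genes, each list names at most the 3 genes of smallest p per comparison among those called, or 1 where none was. Likeness names the 5 genes of highest r, passing over clone-like symbols. Alternatives were the scanner software's processed signal, offset 16, scaling to the 75th percentile, the mean over probes, each probe alone, no filter, a filter on all 6 arrays, the authors' values, a trended robust variance, the replicate number as a block, leaving out each array, and the 4 knockout arrays alone. Replicate numbers did not pair the samples.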

Additional observations from a re-analysis of the deposited data

How the results depend on the processing

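The direction and call of Plvap held in both comparisons with WT under all 16 alternatives. With the authors' deposited values 2 of the 10 genes passed in ATF6aKO against WT (median -0.30), against 50.8% of all genes, and 2 in ATF6bKO against WT (median -0.18), against 51.7%, the median between ATF6aKO and ATF6bKO was 0.04, and the median over all genes moved to 0.85 in both comparisons with WT. There Kdr turned to 0.83 in ATF6aKO and 0.44 in ATF6bKO (adjusted p = 0.17 and 0.432), Cdh5 to 1.85 and 1.8 (adjusted p = 0.0101 and 0.0109) and Tie1 in ATF6bKO to 0.70 (adjusted p = 0.567), in a table whose knockout values trace the unlabelled channel. Leaving out each array in turn gave 3 to 6 genes called in ATF6aKO against WT, with medians of -1.06 to -0.38, and 2 to 6 in ATF6bKO against WT, with medians of -1.03 to -0.28. Between ATF6aKO and ATF6bKO it gave 0 called and medians of -0.21 to 0.03. An arm left with 1 array is assumed to vary like the others. Over all genes these fits called 4682 to 8061 genes in ATF6aKO (4682 without ATF6aKO replicate 2, against 8157 with all arrays) and 3080 to 7019 in ATF6bKO (3080 without ATF6bKO replicate 1 and 3795 without ATF6bKO replicate 2, against 7190), and 8 between the knockouts without ATF6aKO replicate 2. Egfl7 in ATF6aKO was lost with the processed signal (adjusted p = 0.112), offset 16 (0.0512) and 75th percentile scaling (0.0618), and Tie1 with a trended robust variance (0.0689 in ATF6aKO, 0.0807 in ATF6bKO). Tie1 had no value where all 6 arrays had to be well above background. The replicate numbers pair no samples by the labels, and the deviations of same-numbered arrays correlated at -0.156 to 0.197. With the replicate block, 5 genes passed in ATF6aKO (7594 over all genes) and 5 in ATF6bKO (6630 over all genes), where Flt1 had an adjusted p of 0.0513 and Egfl7 of 0.0446. The causes of these changes were not tested. Signal over background limits Tie1, Cdh5 and the dimmer Plvap probe, which read less than 3 times the local background on the knockout arrays.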
